A study of Mus musculus with 2 samples.

Results

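The mir-132 and mir-212 cluster is a pair of microRNA (miRNA) hairpins that lie side by side on mouse chromosome 11 and give 4 mature miRNAs. The members were taken by name, as both arms of both hairpins, and all 4 were listed in both small RNA libraries, among 1125 miRNAs listed in at least 1 library. One library came from a Th17 culture, in which helper T cells are driven to become interleukin-17 producers, and the other from a Th0 culture, its control, with 1 library per group. The starting cells of both were naive CD4+CD62L+ helper T cells, isolated with a kit from the spleen of female C57BL/6 mice and grown in RPMI with 10% serum. Both media held 1 µg/ml of anti-CD28 and 5 µg/ml of each of the antibodies anti-IL-4 and anti-IFN-γ. To these the Th17 medium added 5 µg/ml of each of anti-IL-2 and anti-IL-12, 40 ng/ml of each of the cytokines IL-6 and IL-23, 10 ng/ml of IL-1β and 2 ng/ml of TGF-β, and Th17 cells were kept for 6 to 7 days. A separate length of the Th0 culture is not stated, so culture time and Th17 conditions cannot be told apart. The listed reads totalled 11975371 in the Th17 library and 8358010 in the Th0 library. Levels are given as CPM, the reads of a miRNA divided by its library's listed reads and multiplied by 1000000. The labels speak of triplicates, while each file holds 1 column of reads, and how triplicates were combined is not stated. Each column is treated here as 1 library. Differences were therefore not tested against the spread between cultures, and no p-value is given. Every interval is an exact 95% interval of counting error alone, and reads copied by PCR and not tagged per molecule are not independent of each other. In bulk RNA, a change in the share of cells that hold a miRNA and a change in its level per cell cannot be told apart.

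Both hairpins are cut from 1 primary transcript. Its transcription is known to be driven by CREB, the transcription factor that responds to cAMP and neuronal activity, and in mouse Th17 cells by the aryl hydrocarbon receptor, a ligand-activated transcription factor that Th17 cells hold at high levels. The cluster is best known in neurons, where it acts on dendrite growth and synapses, and in immune cells miR-132-3p is known as an inflammation-responsive miRNA. A mature miRNA finds its target mRNAs mainly through its seed, the bases near its 5′ end, so miRNAs with the same seed share many predicted targets.

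The mature sequences are shown because they say which members can act on the same targets and how far apart in sequence their reads are. They come from RefSeq (GRCm38.p6, the assembly behind mm10), run 5′ to 3′, and have the seed, bases 2 to 8, in capitals.
miR-132-3p: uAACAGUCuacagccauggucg
miR-212-3p: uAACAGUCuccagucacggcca
miR-132-5p: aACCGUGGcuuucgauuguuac
miR-212-5p: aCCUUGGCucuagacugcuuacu
The 3p arms shared the seed AACAGUC, and their first 9 bases were identical. Over all 22 positions they differed at 5, counted from 1 at the 5′ end with miR-132-3p first: A10C, C14U, U17C, U20C and G22A. The 5p arms had a seed each. Aligned at their 5′ ends they matched at 9 of 22 positions, and with miR-212-5p moved by 1 base, so that its first base stands under the second of miR-132-5p, they matched at 14 of 21. For the 3p arms no shift of up to 3 bases in either direction gave more matches than the 17 of 22 without one. Of the 1125 listed miRNAs 935 had a RefSeq mature sequence, and they held 95.1% of the Th17 reads and 95.7% of the Th0 reads. Among these 935 no other miRNA had the seed of any member. No source used here says how reads that match several miRNAs were assigned.

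The hairpins are printed with the mature arms in capitals, to place each arm in its precursor.
Mir212: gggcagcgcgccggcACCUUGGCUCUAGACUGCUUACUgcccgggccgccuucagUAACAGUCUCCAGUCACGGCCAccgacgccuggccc
Mir132: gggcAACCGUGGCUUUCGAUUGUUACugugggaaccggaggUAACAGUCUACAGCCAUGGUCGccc
In mm10 coordinates Mir212 is at chr11:75173388-75173478 and Mir132 at chr11:75173682-75173747, both on the plus strand. They are 203 bases apart, with Mir212 upstream. GENCODE M21 places both in an intron of the noncoding transcript 1700016P03Rik (75172560 to 75177633), whose annotated start lies 828 bases before Mir212. The arms are separated by 17 bases of loop in Mir212 and by 15 in Mir132.

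All 4 members were higher in the Th17 library, by 1.30- to 1.42-fold. Together they held 39153 reads, or 3269 CPM (interval 3237 to 3302), in Th17 and 19750 reads, or 2363 CPM (2330 to 2396), in Th0. The summed level was 1.38-fold higher in Th17 (interval 1.36 to 1.41), and the cluster took 0.327% of the listed reads in Th17 and 0.236% in Th0. All 4 members had a log2 ratio of at least 0.32, as did 30.2% of the 298 miRNAs whose mean level was 10 CPM or more, while 37.6% stood at -0.32 or below. None of the 4 reached 2-fold, which 6.71% of the 298 did on the higher side and 13.1% on the lower side. All 4 counting intervals of the fold lay above 1, as did 40.6% of the 298, and 47.7% lay below 1, so at this depth an interval that excludes 1 is common. The median log2 ratio was 0.49 over the members and -0.080 over the 298. The members share 1 primary transcript, so they are not 4 independent cases beside these shares.

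miR-132-3p, the arm of mir-132 that is taken as its main product and the member best studied in immune cells, had 19705 reads in Th17 and 9662 in Th0. That is 1645 CPM (interval 1623 to 1669) in Th17 and 1156 CPM (1133 to 1179) in Th0, 1.42-fold higher in Th17 (1.39 to 1.46). It was the most abundant member in both libraries, at rank 52 of the miRNAs listed in Th17 and rank 66 in Th0. miR-212-3p, which carries the same seed, had 11129 reads or 929 CPM (912 to 947) in Th17 and 5952 reads or 712 CPM (694 to 730) in Th0. Its ratio of 1.30-fold (1.26 to 1.35) was the smallest of the 4, and its interval did not overlap that of miR-132-3p. Reads with the shared seed of the 3p arms, printed above, added up to 2575 CPM in Th17 and 1868 CPM in Th0, 1.38-fold higher (1.35 to 1.41).

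The 5p arms are the partner strands in each duplex. miR-212-5p had 6335 reads or 529 CPM (516 to 542) in Th17 and 3158 reads or 378 CPM (365 to 391) in Th0, 1.40-fold higher (1.34 to 1.46). miR-132-5p, the least abundant member, had 1984 reads or 166 CPM (158 to 173) in Th17 and 978 reads or 117 CPM (110 to 125) in Th0, 1.42-fold higher (1.31 to 1.53). The intervals of the ratios of miR-132-3p, miR-132-5p and miR-212-5p overlapped each other. The order of levels was miR-132-3p, miR-212-3p, miR-212-5p and miR-132-5p in both libraries, and no neighbours in that order had overlapping intervals. These are numbers of reads, and reads of different miRNAs were not calibrated against numbers of molecules. The authors' deposited TPM values gave the same order, with 1508 for miR-132-3p, 851 for miR-212-3p, 485 for miR-212-5p and 152 for miR-132-5p in Th17, and 1065, 656, 348 and 108 in Th0.

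**Figure D1:**
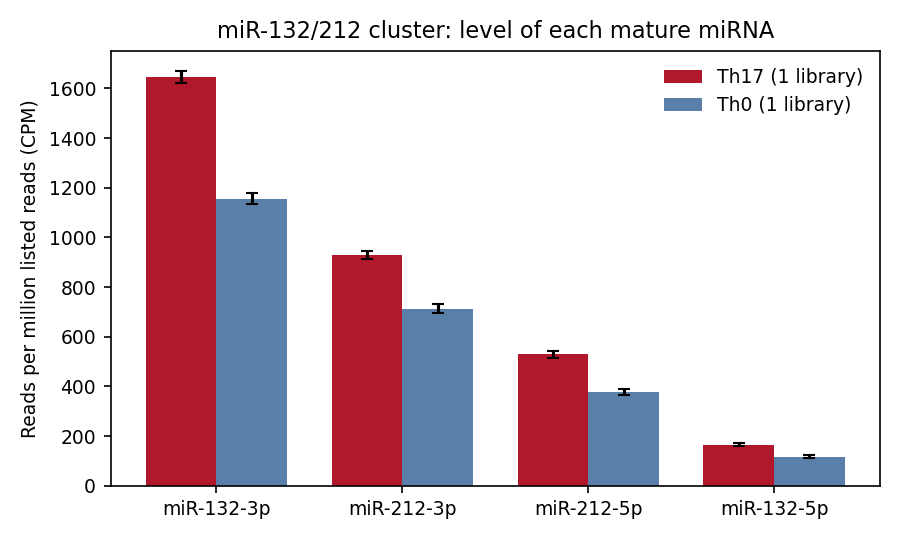
Level of each member in CPM, with the Th17 library left of the Th0 library; bars are 1 library each and error bars are exact 95% Poisson intervals. Each member is higher in Th17 and the order of the members is the same, from miR-132-3p (1645 CPM in Th17, 1156 CPM in Th0) to miR-132-5p (166 CPM in Th17, 117 CPM in Th0).

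The members were set against the other miRNAs of these libraries. Among the 298, the log2 ratio of miR-132-3p (0.51) ranked 55 from the top, that of miR-132-5p (0.50) 58, that of miR-212-5p (0.49) 62 and that of miR-212-3p (0.38) 74. The interquartile range of the 298 ran from -0.61 to 0.38, so the members stood at or above its upper edge and well inside the whole range of -3.18 to 5.46. The members' mean levels ran from 141 to 1401 CPM. Of the 77 other miRNAs in that range of levels, 25 (32.5%) had a log2 ratio of at least 0.32, and the 77 had a median of 0.017.

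**Figure D2:**
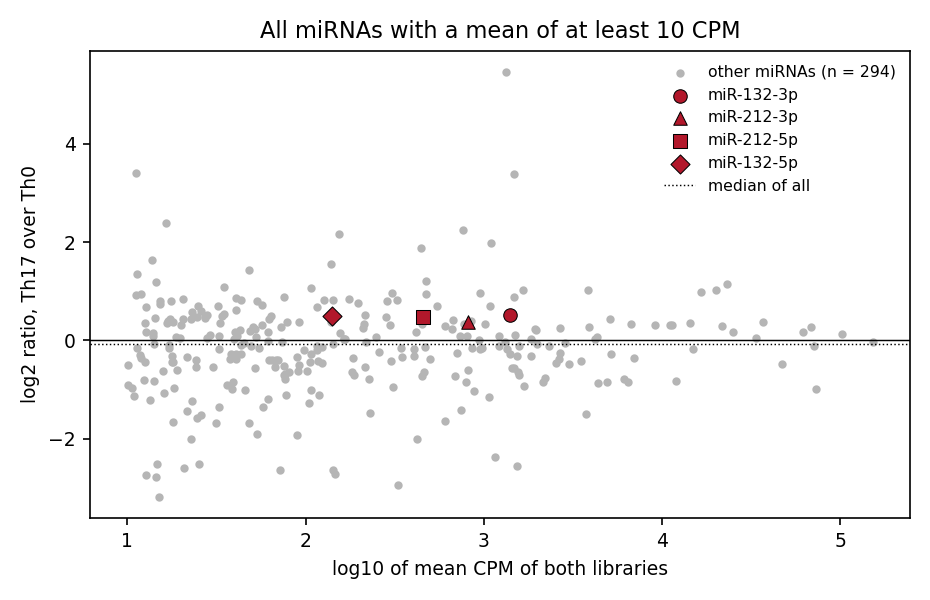
log2 ratio of Th17 over Th0 against the log10 of the mean level in CPM for the 298 miRNAs whose mean level was 10 CPM or more; red symbols are the 4 members, grey points the others, and the dotted line is the median of all at -0.080. The members lie close together between 0.38 and 0.51, above the median and below the miRNAs with the largest ratios.

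The use of the hairpin arms was compared within each library, where the scaling between libraries plays no part. In mir-132 the 5p arm held 9.15% of the hairpin's reads in Th17 (1984 of 21689; interval 8.77 to 9.54%) and 9.19% in Th0 (978 of 10640; 8.65 to 9.76%). The log2 ratios of its arms differed by 0.0077. Among 75 hairpins with both arms at a mean of at least 10 CPM, 1 had a smaller difference between arms. The 75 leave out miRNAs listed with several precursors. The log2 ratio of miR-132-5p had a counting interval of 0.39 to 0.61, far wider than 0.0077, so this rank is uncertain. In mir-212 the 5p arm held 36.3% in Th17 (6335 of 17464; 35.6 to 37.0%) and 34.7% in Th0 (3158 of 9110; 33.7 to 35.7%). These intervals overlapped only at their edges, and such an overlap does not show that the shares are equal. In the same 75 hairpins 24% had a 5p share higher in Th17 with intervals apart and 32% a lower one. The arms of mir-212 differed by 0.10 in log2 ratio, and 15 of the 75 hairpins had a smaller difference. The median difference over the 75 was 0.32, and the median shift of the 5p share was 1.44 percentage points in either direction. By that share mir-212 shifted by 1.61 points, and 39 of the 75 hairpins had a smaller shift.

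Both hairpins gave more 3p than 5p reads, but to different degrees. miR-132-3p had 9.93 reads for each miR-132-5p read in Th17 (interval 9.48 to 10.4) and 9.88 in Th0 (9.25 to 10.6). miR-212-3p had 1.76 reads for each miR-212-5p read in Th17 (1.70 to 1.81) and 1.88 in Th0 (1.80 to 1.97). The less used arm of mir-212 thus held over 3 times the share of that of mir-132. Among the 75 hairpins, 11 were more even than mir-212 in Th17 and 9 in Th0, and the median share of the less used arm was 7.58% in Th17 and 6.44% in Th0. A hairpin whose less used arm was under the minimum is not among the 75, so they lean toward even hairpins.

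The division of reads between the hairpins differed by little between the libraries. mir-132 gave 1811 CPM in Th17 and 1273 CPM in Th0, 1.42-fold higher (1.39 to 1.46), and mir-212 gave 1458 CPM in Th17 and 1090 CPM in Th0, 1.34-fold higher (1.30 to 1.37). The mir-132 hairpin held 55.4% of the cluster's reads in Th17 (interval 54.9 to 55.9%) and 53.9% in Th0 (53.2 to 54.6%), a shift of 1.52 percentage points, and the intervals do not overlap. The intervals were apart for the 3p arms and overlapped for the 5p arms. miR-132-3p was 63.9% of the 3p reads in Th17 (63.4 to 64.4%) and 61.9% in Th0 (61.1 to 62.6%), whereas miR-132-5p was 23.8% of the 5p reads in Th17 (22.9 to 24.8%) and 23.6% in Th0 (22.4 to 24.97%). These intervals cover counting error only, and whether a shift of this size exceeds the spread between cultures was not tested.

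**Figure D3:**
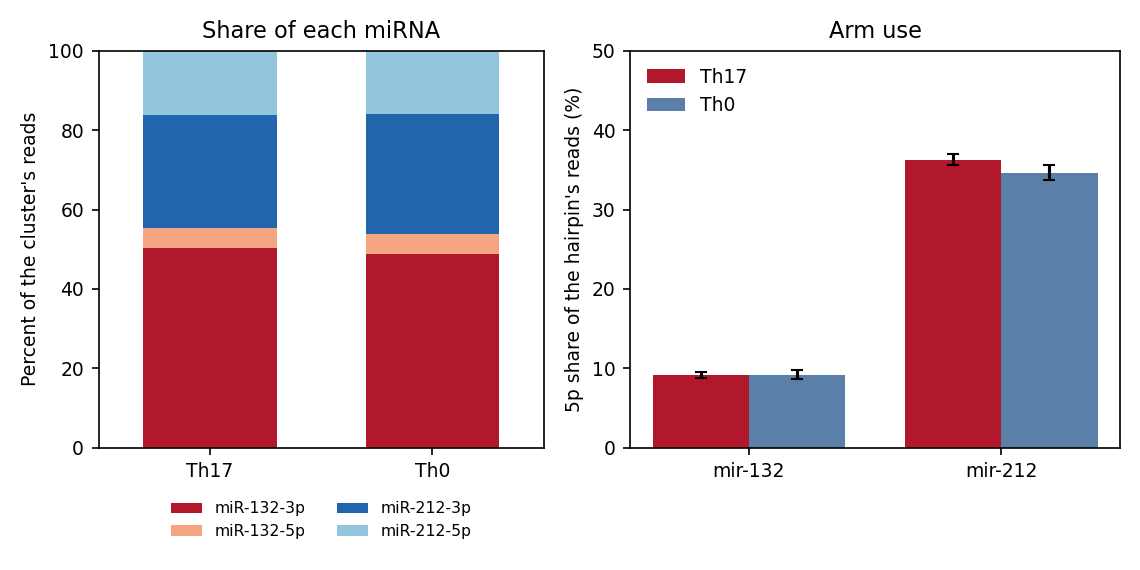
Left, share of the cluster's reads held by each member in the Th17 and the Th0 library. Right, 5p share of each hairpin's reads with exact 95% binomial intervals, Th17 left of Th0. The bars are nearly the same in both libraries, with a 5p share near 9.15% in mir-132 and of 36.3% in Th17 against 34.7% in Th0 in mir-212.

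Members of 1 primary transcript need not have the same ratio, so the spread within the cluster was set beside that of others. Clusters were formed from precursors within 10 kb of each other on the same strand, from miRNAs at a mean of at least 10 CPM that are listed with 1 precursor. Of 273 such miRNAs, 272 had a precursor placed by GENCODE M21. Over the 4 members the highest minus the lowest log2 ratio was 0.13. In all 27 clusters with at least 2 counted hairpins the median was 0.70, and none of the others had a smaller spread. Among the 14 clusters with at least 4 counted miRNAs the spread ran from 0.13, in the mir-132 and mir-212 cluster, to 2.51. With a minimum of 100 CPM, 2 of 17 clusters had a smaller spread, Mir191 with Mir425 (0.049) and Mir182 with Mir183 (0.098), each on 2 miRNAs. Counting error, which is wider at low levels, adds to these spreads and was not removed. All counted miRNAs had log2 ratios of at least 0.32 in 3 of the 27 clusters, the mir-132 and mir-212 cluster among them, and of -0.32 or below in 7.

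**Figure D4:**
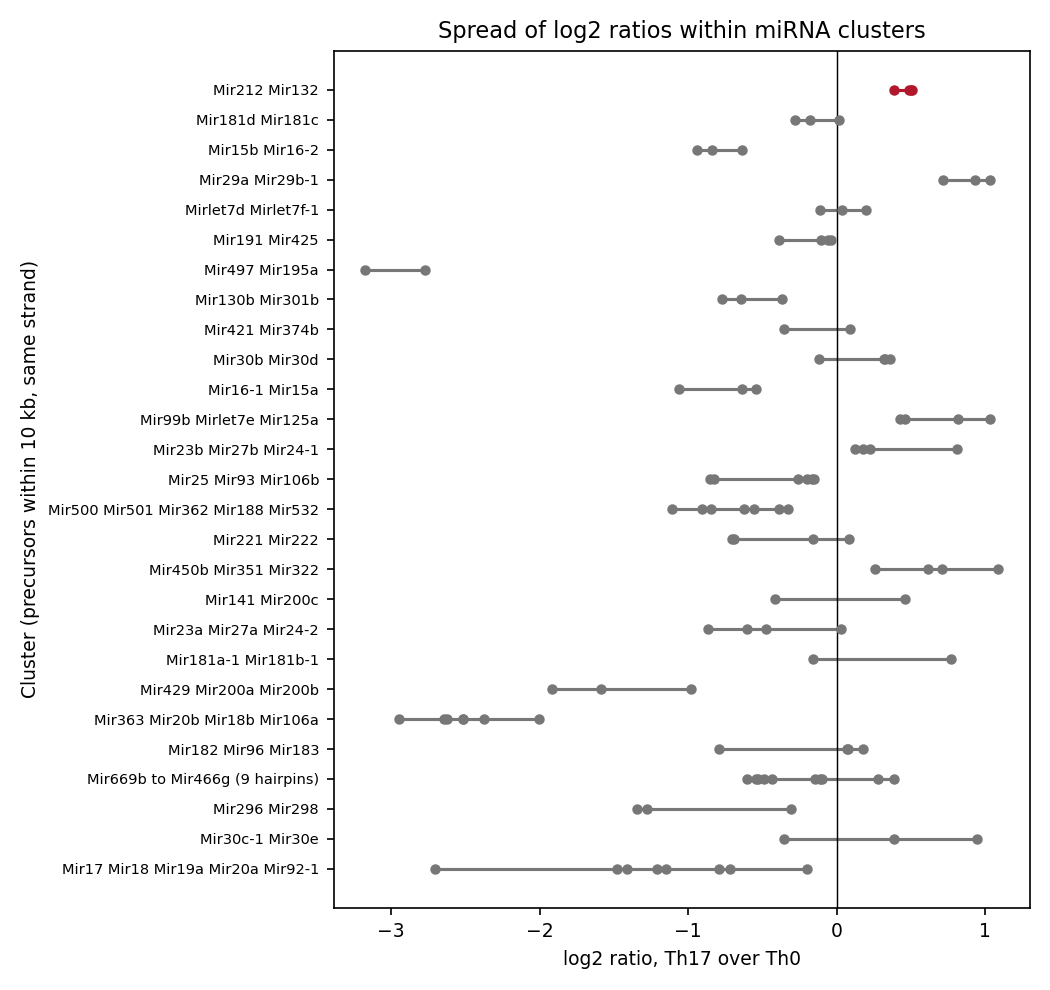
log2 ratio of Th17 over Th0 for each counted miRNA (points) of 27 clusters, ordered from the smallest spread at the top; lines join the lowest and the highest value of a cluster. The mir-132 and mir-212 cluster, in red at the top, spans 0.38 to 0.51, and the median span of all 27 is 0.70.

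At a mean of 100 CPM or more, the 5 miRNAs whose log2 ratio was nearest to that of the summed cluster (0.47) were miR-328-3p (0.49), miR-1843b-5p (0.49), miR-103-3p (0.43), miR-125a-5p (0.43) and miR-1843a-5p (0.52). This likeness is a distance between single log2 ratios over 2 libraries, and it ran from 0.018 to 0.055. Their levels spread widely, from 165 CPM in Th17 and 118 CPM in Th0 for miR-1843b-5p to 5842 CPM in Th17 and 4344 CPM in Th0 for miR-103-3p.

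miR-132 is known to be induced together with miR-146a, miR-146b and miR-155 when human monocytes meet lipopolysaccharide, and these did not share the ratio of miR-132-3p here. miR-155-5p, which promotes Th17 responses in mice, was at 31749 CPM in Th17 and 14346 CPM in Th0, 2.21-fold higher (2.20 to 2.23). miR-146a-5p, a brake on NF-κB signalling, was at 5161 CPM in Th17 and 2552 CPM in Th0, 2.02-fold higher (1.99 to 2.05). miR-146b-5p was at 169 CPM in Th17 and 675 CPM in Th0, a log2 ratio of -2.00. Among the 298, 30.2% had a log2 ratio of at least 0.32 and 37.6% of -0.32 or below, with a median of -0.080. Of 17 miRNAs other than the members with reported roles in Th17 differentiation, 2 had a log2 ratio of at least 0.32. Of the same 17, 9 stood at -0.32 or below and 6 at neither, and their median log2 ratio was -0.38. The highest were miR-155-5p and miR-146a-5p, and the lowest were miR-20b-5p (log2 ratio -2.95) and miR-19b-3p (-2.56), both products of the proliferation-linked mir-17 type clusters. The 17 were not split into reported promoters and reported suppressors of Th17 differentiation. Their counts and median therefore carry no expected direction.

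Markers of cell types that a spleen culture could hold, and of neurons, were read beside the cluster. These lists were chosen with earlier results of these data known. All 6 T cell and lymphocyte miRNAs were present, and they went both ways. Of the 298, 30.2% had a log2 ratio of at least 0.32 and 37.6% of -0.32 or below. Of the 6 T cell and lymphocyte miRNAs, 2 were at 0.32 or above, 2 at -0.32 or below and 2 neither. miR-155-5p, which is also in the Th17 and inflammatory lists, and miR-181a-5p (22098 CPM in Th17, 11156 CPM in Th0) were the higher ones. miR-142a-3p (1153 CPM in Th17, 2194 CPM in Th0) and miR-342-3p (3536 CPM in Th17, 6349 CPM in Th0) were the lower ones. Their sum, carried by the most abundant of the 6, was 136717 CPM in Th17 and 102303 CPM in Th0. Neural markers were included because the cluster is best known in neurons. Of these 6, miR-137-3p was listed in neither library and miR-124-3p had 2 reads in Th17 and 0 in Th0. Their sum of 928 CPM in Th17 and 1034 CPM in Th0 was nearly all miR-128-3p. The 2 myeloid markers summed to 6.93 CPM in Th17 and 3.35 CPM in Th0, and the 3 erythroid markers to 3.51 CPM in Th17 and 0.838 CPM in Th0. The 2 endothelial markers summed to 85.9 CPM in Th17 and 191 CPM in Th0, and the 7 epithelial markers to 229 CPM in Th17 and 414 CPM in Th0. Several of these markers had 0 reads in 1 library, miR-223-5p, miR-144-3p and miR-205-5p in Th0 and miR-9-3p in Th17. The myeloid and erythroid sums were higher in Th17, as the cluster was, but no marker of these lists reached a mean of 10 CPM. Their most abundant markers were miR-223-3p (81 reads in Th17, 28 in Th0) and miR-451a (24 reads in Th17, 6 in Th0). The sum of the T cell list was also higher in Th17, while its members disagreed. The part of any of these lists in the ratios of the members was not tested.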

How the data were processed

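Libraries were prepared from total RNA with a TruSeq kit for small RNA, gel-purified at 140 to 150 bp and sequenced on an Illumina HiSeq instrument, per the labels' protocols. For each library the authors deposited whole-number read counts per mature miRNA, which are not normalized. The authors also deposited TPM values, which are the same reads scaled to a larger total, 13070648 in Th17 and 9072995 in Th0. Per the submitters' processing notes, reads were placed on mm10. Trimming, alignment and miRNA annotation: not given in the sources used here.

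Each count was divided by the column sum of each library (CPM), and a miRNA listed in 1 library counted as 0 in the other. Ratios are Th17 over Th0 without a pseudocount, with exact conditional (Clopper-Pearson) intervals; levels have exact Poisson and shares exact binomial intervals, all at 95%. The ratio procedure was tested on simulated Poisson counts with known totals. Such counts hold no PCR copies and no spread between cultures, so this test checks the calculation only. Computation used Python 3.11.15, scipy 1.17.1 and R 4.3.3, with edgeR 4.0.16 and DESeq2 1.42.0 for alternative scaling only. Sequences are RefSeq's and gene positions GENCODE M21's. A log2 ratio of 0.32 and a 2-fold ratio were the sizes counted. The members, lists, folds and minimums were chosen with earlier results of these data known. Named miRNAs are the members, the 5 nearest in ratio, all of the inflammatory list, the 2 highest and 2 lowest of the Th17 list and any that share a seed with a member; cell type markers and the clusters with a smaller spread are named beside their lists.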

Additional observations from a re-analysis of the deposited data

How the results depend on the processing

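All 4 members had a log2 ratio of at least 0.32 under each of the 4 other scalings. With DESeq2 size factors the log2 ratio was 0.55 for the sum, 0.59 for miR-132-3p, 0.46 for miR-212-3p and 0.56 for miR-212-5p. Without the 10 most abundant miRNAs of either library in the total it was 0.41 for the sum, 0.45 for miR-132-3p and 0.33 for miR-212-3p. These 7 values lay outside the counting interval of the main value, so the choice of total moved the ratios by more than counting error. TMM factors and the totals behind the TPM values kept the sum at 0.48 and 0.46. The median of all miRNAs shifted by at most 0.078. The share of miRNAs at least 2-fold higher was 6.71% and became 11.1% at a minimum of 1 CPM and 23.9% with no minimum, and the share at least 2-fold lower, 13.1%, became 23.4% with no minimum. The share of hairpins with a smaller difference between arms than mir-132 was 1.33%, and 0% at a minimum of 100 CPM. The share of clusters with a smaller spread was 0%, and 11.8% at a minimum of 100 CPM. The other 42 alternative values stayed within the counting interval or within 1.5 times the main value. No paired analysis was possible because each group has 1 library. With at least 978 reads in each library, depth does not limit the direction of the members' ratios, while the missing replicates do. Depth does limit finer comparisons among the members, such as the difference between the arms of mir-132.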
